A study of Mus musculus with 6 samples.

Results

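Chemokine receptors of leukocytes were examined in the infarcted heart: Ccr1, Ccr2, Ccr6, Ccr7, Cxcr2, Cxcr3, Cxcr4, Cxcr6 and Cx3cr1, 9 of the 54532 genes listed. They were chosen by name, with earlier results of these data known. Of these, 8 passed the filter on low values, and Ccr6 did not. Hearts came from C57BL/6 mice on day 7 after ligation of the left anterior descending coronary artery, which induces myocardial infarction (MI), and all 6 mice were operated on. Of these mice, 3 were wild type (WT) and 3 were TSLPR KO, that is Crlf2-/-, without a functional gene for the receptor chain that binds thymic stromal lymphopoietin (TSLP). The study's methods describe young adult male C57BL/6J mice bought from 1 supplier and a Crlf2-/- line made by another company on the C57BL/6J background, without a separate age or sex for that line, so genotype and colony cannot be told apart. No unoperated heart was compared. Each mouse gave 1 bulk RNA-seq library of infarcted and peri-infarcted tissue, with 18508646 to 18973594 fragments on listed genes in WT mice and 18578175 to 19682428 in Crlf2-/- mice.

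Chemokines are small secreted proteins that guide leukocytes, and their receptors are proteins that cross the membrane repeatedly and signal through inhibitory G proteins. Which receptors a leukocyte carries helps to set which tissues it can enter. Ccr7 guides naive and central memory T cells and mature dendritic cells towards lymphoid tissue, Cxcr3 and Cxcr6 are carried by effector and tissue T cells and by some natural killer (NK) cells, and Ccr6 by Th17 cells, regulatory T cells and B cells. Ccr2 brings inflammatory monocytes out of the bone marrow and into injured tissue, Ccr1 is found on monocytes, macrophages and neutrophils, Cxcr2 on neutrophils, and Cx3cr1 on patrolling monocytes and many macrophages. Cxcr4, the receptor that retains stem cells and neutrophils in the bone marrow, is found on most leukocytes and on some cells of the vessel wall. After MI, neutrophils and monocytes enter the heart first and lymphocytes follow. The receptors were therefore read as a T cell group (Ccr6, Ccr7, Cxcr3, Cxcr6), a myeloid group (Ccr1, Ccr2, Cxcr2, Cx3cr1) and the broadly carried Cxcr4.

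The level unit was FPKM, fragments scaled to the length of the gene and to the size of the library. This allows levels of different genes to be set side by side, within the limits of that length. For the receptors it equalled all annotated exon bases of a gene, for Ccr2 6760 bases over 4 transcripts. Which transcripts were present was not examined, so orders, shares and ratios between receptors depend on this length. Crlf2 itself was at 26.6, 25.1 and 21.6 FPKM in WT mice and at 13.2, 18.7 and 19.8 FPKM in Crlf2-/- mice. The ranges did not overlap and the Crlf2-/- libraries were the lower ones, but transcripts of the gene were present in all of them, and a value for the whole gene does not show which exons were left. For Crlf2 the log2 fold change was -0.52 ± 0.17 (SE; limma, adjusted p = 0.521). Markers of cardiomyocytes summed to between 713 and 2080 FPKM and those of the retina, which the extraction text of the labels names, to between 0.023 and 0.111 FPKM, so the tissue was read as heart.

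Of the 9 genes, 4 lie on chromosome 9 (GRCm38 coordinates, as in the deposited table). Cxcr6 (plus strand, 123806475 to 123811760), Ccr1 (minus strand, 123962124 to 123968692) and Ccr2 (plus strand, 124101950 to 124113557) are close neighbours, with 150364 bases between Cxcr6 and Ccr1 and 133258 bases between Ccr1 and Ccr2. Cx3cr1 (minus strand, 119901616 to 120069879) lies 3736596 bases before Cxcr6. The neighbours belong to different groups here: Cxcr6 is a T cell receptor, while Ccr1 and Ccr2 are myeloid. Cxcr2 (plus strand, 74153989 to 74161246) and Cxcr4 (minus strand, 128588199 to 128592293) lie on chromosome 1, Ccr7 (minus strand, 99144196 to 99155077) on chromosome 11, Ccr6 (plus strand, 8236043 to 8257141) on chromosome 17 and Cxcr3 (minus strand, 101731535 to 101734269) on chromosome X.

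The promoter windows of the 3 neighbours and of Cxcr3 are shown because these genes stand on both sides of the contrast between T cell and myeloid receptors. The sequences are from RefSeq (GRCm38.p6), 300 bases each around the start annotated there and 5′ to 3′ on the strand of the gene. That start need not be the one in the deposited table. Capitals mark 3 short motifs searched on both strands: TCACAC or GTGTGA (bound by T-box factors such as T-bet), TGTGGT or ACCACA (RUNX factors) and GAGGAA or TTCCTC (the core bound by PU.1, a factor of myeloid cells). None of these letters overlap with each other in the windows shown. The windows are chrX:101734098-101734397 (minus) for Cxcr3, chr9:123806227-123806526 (plus) for Cxcr6, chr9:123968643-123968942 (minus) for Ccr1 and chr9:124101933-124102232 (plus) for Ccr2.
Cxcr3: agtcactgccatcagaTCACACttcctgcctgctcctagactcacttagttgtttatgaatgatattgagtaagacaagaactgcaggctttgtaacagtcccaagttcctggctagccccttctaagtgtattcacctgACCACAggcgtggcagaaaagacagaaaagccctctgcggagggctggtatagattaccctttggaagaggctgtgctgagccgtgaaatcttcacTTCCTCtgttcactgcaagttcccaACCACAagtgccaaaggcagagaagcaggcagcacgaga
Cxcr6: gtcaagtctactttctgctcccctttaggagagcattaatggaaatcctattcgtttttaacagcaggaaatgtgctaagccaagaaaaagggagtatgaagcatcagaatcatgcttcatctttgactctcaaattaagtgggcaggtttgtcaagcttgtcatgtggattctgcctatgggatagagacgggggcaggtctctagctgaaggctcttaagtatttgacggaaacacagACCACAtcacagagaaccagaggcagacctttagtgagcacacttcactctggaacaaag
Ccr1: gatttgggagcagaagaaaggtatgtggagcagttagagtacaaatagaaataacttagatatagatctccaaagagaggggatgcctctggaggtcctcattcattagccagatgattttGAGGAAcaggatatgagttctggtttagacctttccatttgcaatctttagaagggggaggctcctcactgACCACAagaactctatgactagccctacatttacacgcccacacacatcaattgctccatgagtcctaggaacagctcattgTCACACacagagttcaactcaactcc
Ccr2: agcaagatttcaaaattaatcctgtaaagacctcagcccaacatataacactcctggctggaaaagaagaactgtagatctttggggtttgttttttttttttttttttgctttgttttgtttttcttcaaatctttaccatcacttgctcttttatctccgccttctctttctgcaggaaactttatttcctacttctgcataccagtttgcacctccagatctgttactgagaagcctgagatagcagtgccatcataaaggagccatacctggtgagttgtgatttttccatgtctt
The window of Cxcr3 held 1 match to the T-box motif, 2 to RUNX and 1 to the PU.1 core. The window of Cxcr6 held 1 RUNX match, that of Ccr1 held 1 of each motif, and that of Ccr2 held none. The Ccr2 window begins at 124101933, just before the start of the gene in the deposited table (124101950). Nearly all of it lies inside that gene, and the bases before the window were not searched. RefSeq windows were found for 8 of the 9 receptors, Ccr7 being the one without, and of these 8 the T-box motif was in 2, the RUNX motif in 5 and the PU.1 core in 4. Over all 32851 promoter windows of the same length, 14.5%, 16.8% and 28.3% held them. The receptors were counted per gene and the background per window, so the shares are not in the same unit. Ccr6 had 2 windows, 1 with a RUNX and a PU.1 core match and 1 with no match, and was counted as holding both motifs. A match is a run of letters and not a measured binding site.

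Cxcr4 had the highest level of the 9 receptors, at 47.2 ± 4.79 FPKM (SD over the 6 libraries), and Ccr6 the lowest, at 0.141 ± 0.029 FPKM. Between them came Cx3cr1 (20.1 ± 2.16 FPKM), Ccr2 (17.8 ± 2.39 FPKM), Ccr1 (7.88 ± 2.61 FPKM), Cxcr6 (6.56 ± 1.98 FPKM), Cxcr3 (3.71 ± 0.792 FPKM), Ccr7 (1.96 ± 0.762 FPKM) and Cxcr2 (0.563 ± 0.278 FPKM). In this pooled order Cx3cr1 and Ccr2 stood above the T cell receptors, but the place of Ccr1 differed by genotype: in WT mice Cxcr6 (7.89 FPKM) had a higher mean than Ccr1 (6.89 FPKM), and in Crlf2-/- mice a lower one (5.22 and 8.86 FPKM). The neutrophil receptor Cxcr2 stood below 3 of the 4 T cell receptors. Neighbours in this order did not always separate. Cx3cr1 lay above Ccr2 in 4 of 6 libraries and Ccr1 above Cxcr6 in 3 of 6, with overlapping ranges. Cxcr6 lay above Cxcr3, and Cxcr3 above Ccr7, in 6 of 6 libraries, although their ranges over the libraries overlapped. The ranges were apart at the other 4 steps, where the mean level was 2.35 times higher in Cxcr4 than in Cx3cr1, 2.26 times higher in Ccr2 than in Ccr1, 3.48 times higher in Ccr7 than in Cxcr2 and 3.99 times higher in Cxcr2 than in Ccr6.

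**Figure D1:**
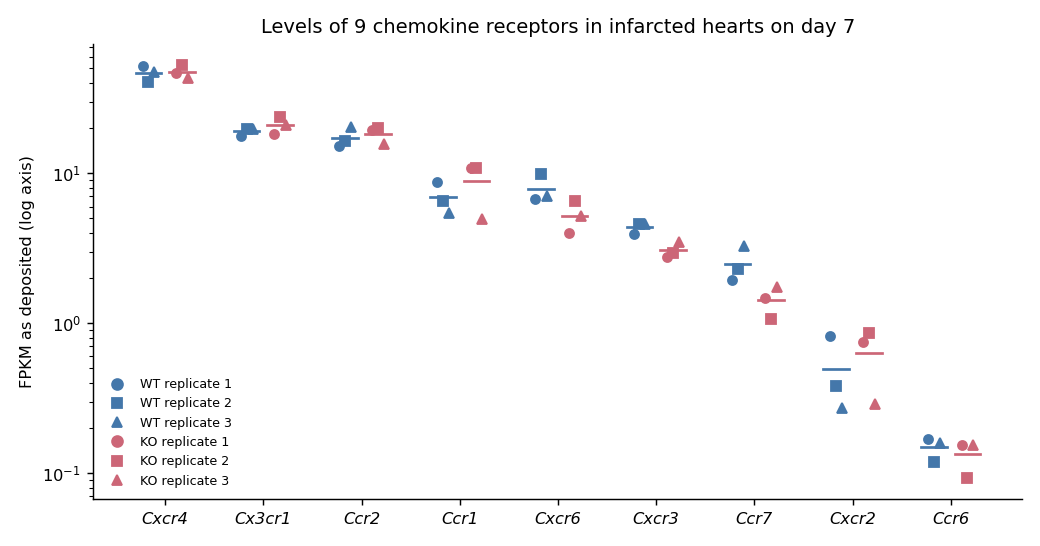
Level of each receptor in each library, in FPKM as deposited on a log axis, with WT in blue, KO (Crlf2-/-) in red, 1 symbol per replicate number and a line at each group's mean. Cxcr6, Cxcr3 and Ccr7 are the only receptors for which every KO symbol lies below every WT symbol.

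As a share of the summed level of all 9 receptors, Cxcr4 made up 44.3 ± 4.06% in WT and 44.8 ± 0.498% in Crlf2-/- mice (SD, n = 3 each). Cx3cr1 made up 18.1 ± 1.56% and 19.8 ± 2.09%, and Ccr2 16.4 ± 2.34% and 17.3 ± 1.24%. Cxcr6 made up 7.53 ± 1.95% in WT and 4.90 ± 0.916% in Crlf2-/- mice, Cxcr3 4.15 ± 0.445% and 2.91 ± 0.635%, and Ccr7 2.37 ± 0.605% and 1.37 ± 0.458%. The sum itself was 107, 101 and 108 FPKM in WT mice and 104, 119 and 95.8 FPKM in Crlf2-/- mice, and the groups overlapped.

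The first question was whether the loss of TSLPR went with other receptor levels in the infarcted heart. Of the 8 receptors tested, 0 were called different by limma, for which the adjusted p had to be 0.05 or less and the log2 fold change 0.5 or more in size. The same rule called 2 of all 15520 genes tested, or 0.0129%, with 0.00644% lower and 0.00644% higher in Crlf2-/- mice. At an unadjusted p under 0.05, 3 of the 8 receptors were lower and none was higher, where 6.58% of all genes passed, 3.36% lower and 3.22% higher. The 3 were Ccr7, Cxcr3 and Cxcr6, all the T cell receptors that could be tested. In the same 3 receptors all Crlf2-/- hearts were lower than all WT hearts. Groups did not overlap in 11.7% of all genes, with 6.45% lower and 5.24% higher in Crlf2-/- mice. Since the receptors were chosen with earlier results of these data known, these shares are a description and not a test. Because hearts were sequenced in bulk, fewer cells of a type and less RNA per cell cannot be told apart. With 3 mice per group an exact permutation test of 1 gene cannot go below a two-sided p of 0.1.

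Ccr7 was at 1.93, 2.31 and 3.26 FPKM in WT mice and at 1.48, 1.06 and 1.73 FPKM in Crlf2-/- mice. The lowest WT heart stood above the highest Crlf2-/- heart, by a small margin. Behind these levels stood 49 to 141 fragments per library, so counting error is a visible part of the spread. The mean level was 2.50 ± 0.684 FPKM against 1.42 ± 0.336 FPKM (SD, n = 3 each). This gave a log2 fold change of -0.76 ± 0.24 (SE; 95% confidence interval -1.31 to -0.21; limma, unadjusted p = 0.0126, adjusted p = 0.514), the most negative of the 8 receptors.

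Cxcr3, the receptor of interferon-induced chemokines on Th1 and cytotoxic T cells, was at 3.94, 4.59 and 4.57 FPKM in WT mice. In Crlf2-/- mice it was at 2.76, 2.92 and 3.49 FPKM. The groups were tight and did not overlap, at 4.37 ± 0.369 FPKM against 3.06 ± 0.381 FPKM, from 106 to 173 fragments per library. In Cxcr3 the log2 fold change was -0.50 ± 0.13 (SE; 95% confidence interval -0.80 to -0.20; limma, unadjusted p = 0.00522, adjusted p = 0.363), with the smallest p of the 8 receptors.

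Cxcr6, the receptor of the membrane-bound chemokine Cxcl16, was at 6.75, 9.85 and 7.08 FPKM in WT mice and at 3.99, 6.48 and 5.19 FPKM in Crlf2-/- mice. The highest Crlf2-/- heart was just under the lowest WT heart. The mean level was 7.89 ± 1.70 FPKM against 5.22 ± 1.25 FPKM, from 171 to 412 fragments per library. On the log2 scale Cxcr6 differed by -0.59 ± 0.20 (SE; 95% confidence interval -1.05 to -0.13; limma, unadjusted p = 0.0186, adjusted p = 0.572). Without WT replicate 2 the unadjusted p was 0.0702 and without Crlf2-/- replicate 1 it was 0.0598. The gene lies within the span of Fyco1 on the opposite strand and shares no exon bases with it.

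Ccr6, the receptor of Ccl20, was near the limit of detection. It was at 0.168, 0.119 and 0.158 FPKM in WT mice and at 0.155, 0.0924 and 0.153 FPKM in Crlf2-/- mice, which is 5 to 9 fragments per library and 44 in total. The groups overlapped, and a difference was not detectable at this depth. Without the filter the log2 fold change of Ccr6 was -0.09 ± 0.30 (SE; limma, unadjusted p = 0.765, adjusted p = 0.965).

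**Figure D2:**
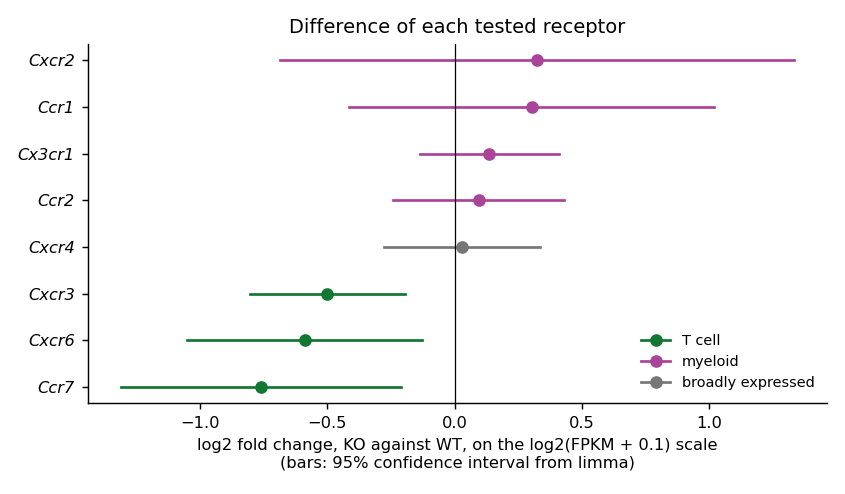
Log2 fold change of each of the 8 tested receptors, KO (Crlf2-/-) against WT, on the log2(FPKM + 0.1) scale, with bars for the 95% confidence interval from limma and colours for T cell, myeloid and broadly expressed receptors. The intervals of Cxcr3, Cxcr6 and Ccr7 lie below 0 before adjustment for 15520 genes, and the other 5 include 0.

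Myeloid receptors showed a different picture. The log2 fold change was above 0 in 4 of 4 myeloid receptors, with a range of 0.09 to 0.32 and a median of 0.22, while the groups overlapped in each and none reached an unadjusted p of 0.05. The median over the 3 tested T cell receptors was -0.59, and over all 15520 genes it was 0.00 (-0.0042), with 50.9% of genes below 0.

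Ccr2 was at 15.1, 16.4 and 20.4 FPKM in WT mice and at 19.4, 20.1 and 15.6 FPKM in Crlf2-/- mice. The highest value was in a WT heart and the lowest in another. With 2356 to 3177 fragments per library the counting error was small, and the mean level was 17.3 ± 2.73 FPKM against 18.4 ± 2.43 FPKM. For Ccr2 the log2 fold change was 0.09 ± 0.15 (SE; 95% confidence interval -0.24 to 0.43; limma, adjusted p = 0.995).

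Cx3cr1, the receptor of fractalkine (Cx3cl1), was at 17.7, 19.8 and 19.8 FPKM in WT mice and at 18.4, 23.8 and 20.9 FPKM in Crlf2-/- mice. The lowest Crlf2-/- heart lay within the WT range and the others above it. Cx3cr1 had a log2 fold change of 0.14 ± 0.12 (SE; 95% confidence interval -0.13 to 0.41; limma, adjusted p = 0.953), from 1835 to 2502 fragments per library. Cx3cr1 shares 78 exon bases with the antisense gene Gm33858, which had 2 to 24 fragments per library. Whether strand was used in counting is not given in the sources used here.

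Ccr1, a receptor of Ccl3, Ccl5 and Ccl6, was at 8.71, 6.55 and 5.42 FPKM in WT mice. In Crlf2-/- mice it was at 10.8, 10.9 and 4.96 FPKM. Crlf2-/- replicates 1 and 2 held the highest values of all 6 libraries and replicate 3 the lowest. Its log2 fold change was 0.30 ± 0.31 (SE; 95% confidence interval -0.41 to 1.02; limma, adjusted p = 0.981). Without Crlf2-/- replicate 3 it was 0.67 (unadjusted p = 0.013, adjusted p = 0.513).

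Cxcr2, the neutrophil receptor of Cxcl1, Cxcl2 and Cxcl5, followed the same order of libraries as Ccr1 in Crlf2-/- mice. It was at 0.826, 0.379 and 0.270 FPKM in WT mice and at 0.754, 0.858 and 0.291 FPKM in Crlf2-/- mice, from 18 to 61 fragments per library. High and low hearts were present in both groups. The log2 fold change was 0.32 ± 0.44 (SE; 95% confidence interval -0.69 to 1.33; limma, adjusted p = 0.995), the widest interval of the 8 receptors.

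Cxcr4 was at 52.1, 40.7 and 47.5 FPKM in WT mice and at 46.3, 53.0 and 43.5 FPKM in Crlf2-/- mice. The groups lay over each other. The log2 fold change was 0.03 ± 0.13 (SE; 95% confidence interval -0.28 to 0.34; limma, adjusted p = 0.996), from 1596 to 2237 fragments per library, and its sign turned when WT replicate 2 (-0.071) or Crlf2-/- replicate 2 (-0.046) was left out.

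Summed over their groups, the T cell receptors were at 12.8, 16.9 and 15.1 FPKM in WT mice and at 8.39, 10.6 and 10.6 FPKM in Crlf2-/- mice. The myeloid receptors were at 42.4, 43.1 and 45.9 FPKM in WT mice and at 49.3, 55.7 and 41.8 FPKM in Crlf2-/- mice. The first sum separated the groups and the second did not. To give each receptor the same weight, the log2 levels of the tested receptors were averaged per library and set relative to the WT mean. On this scale the T cell receptors stood at -0.21, 0.10 and 0.11 in WT mice and at -0.75, -0.65 and -0.45 in Crlf2-/- mice, a difference of -0.62. The myeloid receptors stood at 0.22, -0.07 and -0.15 in WT mice and at 0.37, 0.50 and -0.23 in Crlf2-/- mice, a difference of 0.21.

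The contrast of T cell with myeloid receptors is the difference between these log2 averages in the same library. It was -0.43, 0.17 and 0.26 in WT mice and -1.11, -1.16 and -0.22 in Crlf2-/- mice. The mean in Crlf2-/- mice was -0.83 ± 0.53 (SD, n = 3) against a WT spread of 0.38 (SD, n = 3). The groups overlapped, because Crlf2-/- replicate 3 lay above WT replicate 1. Both of these hearts stood at the edge of their group in the myeloid average, WT replicate 1 at the top and Crlf2-/- replicate 3 at the bottom. Without Crlf2-/- replicate 3 the difference in the contrast was -1.14. No test was made of this contrast, since the receptors were chosen with earlier results of these data known.

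**Figure D3:**
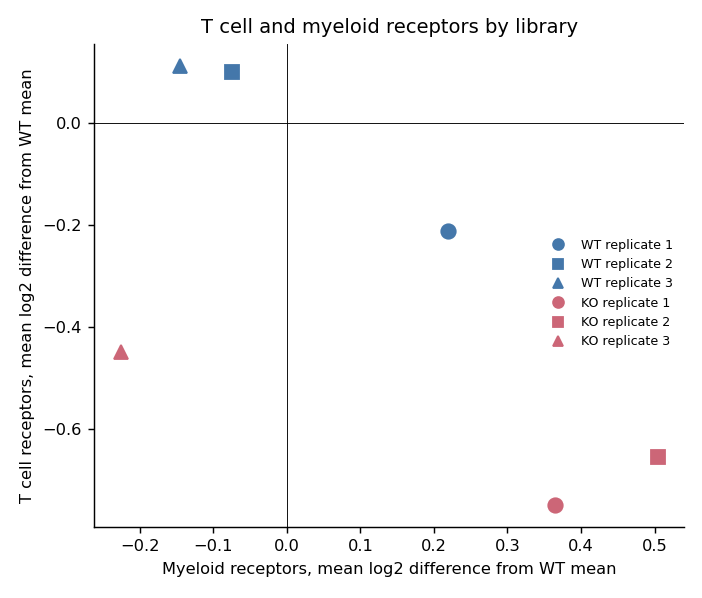
Each library by the average log2 level of its 4 myeloid receptors (x axis) and its 3 tested T cell receptors (y axis), both as a difference from the WT mean, with WT in blue and KO (Crlf2-/-) in red. The 3 KO libraries lie below the 3 WT libraries on the y axis and are mixed with them on the x axis.

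Single pairs of receptors gave ratios within a library. Cxcr3 was at 26.0, 28.0 and 22.4% of the level of Ccr2 in WT mice and at 14.2, 14.5 and 22.3% in Crlf2-/- mice. Replicate 3 of either group gave nearly the same ratio, while the other hearts were well apart. Cxcr6 was at 44.6, 60.1 and 34.8% of Ccr2 in WT and 20.6, 32.2 and 33.2% in Crlf2-/- mice, and Ccr7 at 12.8, 14.1 and 16.0% and at 7.63, 5.27 and 11.1%. Against Cx3cr1, Cxcr6 was at 38.1, 49.9 and 35.8% in WT mice and at 21.7, 27.2 and 24.8% in Crlf2-/- mice. Against its chromosome neighbour Ccr1 the groups overlapped, with Cxcr6 at 77.5, 150 and 131% in WT mice and at 37.1, 59.7 and 105% in Crlf2-/- mice.

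Markers of the cells that carry these receptors were read from the same fit. Of 13 tested T cell markers, 11 were lower and 0 higher at an unadjusted p under 0.05, 0 were called, and the median log2 fold change was -0.85. No T cell marker was at 0 in every library, and their summed level was 21.1 to 29.7 FPKM in WT mice and 11.8 to 14.6 FPKM in Crlf2-/- mice. Trbc2, a constant part of the T cell receptor, was at 6.67 ± 0.967 FPKM in WT and 2.20 ± 0.469 FPKM in Crlf2-/- mice (log2 fold change -1.56, adjusted p = 0.0637). Cd247, the zeta chain of that receptor complex, was at 0.502 ± 0.125 FPKM and 0.121 ± 0.0393 FPKM (log2 fold change -1.44, adjusted p = 0.149). Averaged like the receptors, the T cell markers stood at 0.11, 0.18 and -0.29 in WT mice and at -0.78, -1.02 and -0.97 in Crlf2-/- mice. The part of these markers in the lower values of Ccr7, Cxcr3 and Cxcr6 was not tested.

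Set against the T cell markers of the same library, the T cell receptors were not lower in Crlf2-/- mice at the pseudocount of 0.1. Their log2 average minus that of the markers was -0.32, -0.08 and 0.40 in WT mice and 0.03, 0.37 and 0.52 in Crlf2-/- mice, and the groups overlapped. The same difference was 0.43 higher in Crlf2-/- mice for Cxcr3, 0.34 higher for Cxcr6 and 0.16 higher for Ccr7, each with overlapping groups. The comparison was sensitive to the pseudocount. With 1, the median log2 fold change was -0.41 for the T cell markers and -0.51 for the tested T cell receptors. With 0.01 these medians were -1.13 and -0.60. The difference per library was not computed at these settings. For Ccr7, dendritic cells are another source. Of 7 dendritic cell markers, 5 had a log2 fold change below 0, 2 were lower and 0 higher at an unadjusted p under 0.05, and the median was -0.18. Their summed level was 62.1 to 70.4 FPKM in WT and 64.9 to 79.4 FPKM in Crlf2-/- mice, none being at 0 throughout, but Fscn1 alone, which is not limited to dendritic cells, made up 54.7 to 73.8 FPKM of it. The other 6 summed to 7.43 to 10.4 FPKM in WT and 5.58 to 7.77 FPKM in Crlf2-/- mice, a split made after the values were seen. The 2 lower markers were Cd209a, a lectin of monocyte-derived dendritic cells (3.34 ± 0.543 against 1.68 ± 0.531 FPKM, log2 fold change -0.99, adjusted p = 0.329), and Zbtb46, a transcription factor of classical dendritic cells (1.97 ± 0.254 against 1.43 ± 0.0907 FPKM, log2 fold change -0.42, adjusted p = 0.635). The log2 level of Ccr7 minus the average of these markers was -0.10, -0.12 and 0.22 in WT mice and -0.30, -0.73 and -0.43 in Crlf2-/- mice, without overlap.

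NK cells and B cells can carry Cxcr3, Cxcr6 or Ccr6 too. Of 7 NK cell markers, 2 were lower and 0 higher at an unadjusted p under 0.05: the granzyme genes Gzmb (2.84 ± 0.499 against 1.25 ± 0.0748 FPKM, log2 fold change -1.11, adjusted p = 0.109) and Gzma (4.16 ± 0.161 against 2.40 ± 0.315 FPKM, log2 fold change -0.77, adjusted p = 0.149), which cytotoxic T cells also make. The median of the list was 0.11, with 3 log2 fold changes below 0 and 4 above. The 4, named after their values were seen, were Ncr1 (0.63), Eomes (0.51), Klrb1c (0.15) and Klre1 (0.11). In Eomes every Crlf2-/- library lay above every WT library (limma, adjusted p = 0.807). Of 8 B cell markers, 0 passed in either direction, and their median was 0.08. The summed level of the NK cell markers was 9.47 ± 0.536 FPKM in WT and 6.74 ± 1.5 FPKM in Crlf2-/- mice. Without Gzma, the most abundant of them, the NK cell sum was 4.73 to 5.74 FPKM in WT and 2.97 to 5.14 FPKM in Crlf2-/- mice, with overlap. This sum still held Gzmb. The B cell markers summed to 7.42 to 9.51 FPKM in WT and 6.86 to 11.2 FPKM in Crlf2-/- mice. When Crlf2-/- replicate 1 was left out, the medians turned to -0.15 for NK cells and -0.13 for B cells. For regulatory T cells, 3 of 5 markers were tested and 0 passed, with a median of 0.28 that was -0.0064 without WT replicate 1 and 0.60 without WT replicate 3. The 3 tested were Ikzf2 (log2 fold change 0.29), Il2ra (0.28) and Tnfrsf18 (0.16), each above 0 and with overlapping groups. Of the untested markers, the defining factor Foxp3 had 1 to 9 fragments per library. Ctla4, an inhibitory receptor, had 5, 2 and 3 fragments in WT mice and 0 in each Crlf2-/- library. With 10 fragments in total for Ctla4, this is too little to read as a difference. Foxp3 and Ctla4 were named outside the rule for named genes.

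**Figure D4:**
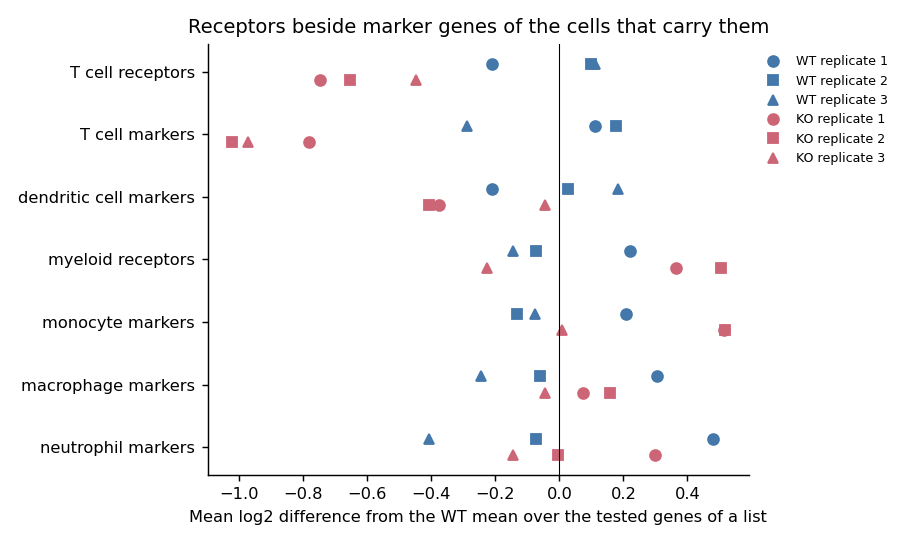
Average log2 difference from the WT mean of the tested genes of each list, 1 symbol per library, WT in blue and KO (Crlf2-/-) in red. The KO libraries lie below all WT libraries for T cell receptors and T cell markers, and the groups overlap in the other 5 lists.

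Monocyte markers lay to the same side as the myeloid receptors. Of 8 monocyte markers, 0 were lower and 4 higher at an unadjusted p under 0.05, 0 were called, and the median was 0.35, or 0.14 without Crlf2-/- replicate 1 and 0.55 without Crlf2-/- replicate 3. Plac8, a gene of inflammatory monocytes, was at 40.7 ± 5.13 FPKM in WT and 58.2 ± 7.92 FPKM in Crlf2-/- mice (log2 fold change 0.52, adjusted p = 0.375). Ly6c2, the antigen that marks these cells, was at 4.52 ± 0.547 FPKM and 6.79 ± 1.46 FPKM (log2 fold change 0.57, adjusted p = 0.483). The rest of the 4 were Fcgr1 (log2 fold change 0.58, limma adjusted p = 0.581, with overlap) and Vcan (0.33, limma adjusted p = 0.756). These are not limited to monocytes. The summed level of the monocyte markers was 117 to 144 FPKM in WT and 145 to 195 FPKM in Crlf2-/- mice, with none at 0 throughout. Their log2 average was 0.21, -0.13 and -0.08 in WT mice and 0.51, 0.52 and 0.01 in Crlf2-/- mice, so Crlf2-/- replicate 3 was the lowest of its group here as it was for Ccr1 and Cxcr2. Minus these markers, the myeloid receptors differed by -0.13, with overlapping groups.

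Of 10 macrophage markers, 0 passed in either direction, with a median of 0.10 and summed levels of 2490 to 4420 FPKM in WT and 2970 to 3600 FPKM in Crlf2-/- mice. Of 7 tested neutrophil markers of 11 listed, 0 passed, with summed levels of 19.2 to 31.7 FPKM and 20.2 to 29.1 FPKM. Their median was 0.22, but it turned to -0.29 without the filter, -0.037 without Crlf2-/- replicate 1 and -0.019 without WT replicate 3. The macrophage median turned to -0.040 without WT replicate 3. The log2 level of Cxcr2 minus the neutrophil average was 0.27 higher in Crlf2-/- mice, and the groups overlapped. Among markers of other cells of the sample, 0 were called. At an unadjusted p under 0.05, 4 of 8 cardiomyocyte markers were lower (smallest limma adjusted p = 0.391, groups overlapping in all but 1, summed level 1100 to 2080 FPKM in WT and 713 to 1420 FPKM in Crlf2-/- mice). So were 5 of 5 red blood cell markers (smallest limma adjusted p = 0.0637, no overlap, 226 to 370 FPKM and 84.9 to 161 FPKM). The part of these in the receptor values was not tested.

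The ligands of the receptors were read next. Of 20 tested ligand genes, 0 were called, 2 were lower and 0 higher at an unadjusted p under 0.05, and the median log2 fold change was 0.03 (-0.065 without WT replicate 3), with 9 below and 11 above 0. Ccl5, a T cell and NK cell product that binds Ccr1, was at 8.37, 12.9 and 12.4 FPKM in WT mice and at 6.29, 5.27 and 6.75 FPKM in Crlf2-/- mice. Every Crlf2-/- heart was below every WT heart (log2 fold change -0.85 ± 0.18, SE; limma, adjusted p = 0.245). Cxcl5, a neutrophil attractant that binds Cxcr2, was at 5.57, 2.70 and 3.39 FPKM in WT and 3.05, 1.73 and 1.93 FPKM in Crlf2-/- mice, with overlap (log2 fold change -0.75 ± 0.30, SE; limma, adjusted p = 0.709).

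The most abundant chemokine ligand of each receptor, Cxcl5 for Cxcr2 among them, had overlapping groups wherever it was above 0. Mif, a cytokine outside the chemokine families that also binds Cxcr2 and Cxcr4, was the most abundant gene of the ligand list, at 91.7 ± 19.9 FPKM in WT and 99.7 ± 3.74 FPKM in Crlf2-/- mice, with overlap (log2 fold change 0.15; limma, adjusted p = 0.988). For the T cell receptors these were Cxcl16 (47.0 ± 4.68 FPKM in WT and 48.7 ± 4.2 FPKM in Crlf2-/- mice, ligand of Cxcr6) and Cxcl10 (8.83 ± 4.16 and 10.6 ± 3.01 FPKM, ligand of Cxcr3). Their log2 fold changes were 0.05 and 0.33, beside the negative values of their receptors. The only Ccr7 ligand tested, Ccl21a, was at 19.2, 5.97 and 1.14 FPKM in WT mice and at 0.561, 21.9 and 0.662 FPKM in Crlf2-/- mice. It varied more between hearts of a group than between groups, and it has near-identical gene copies that could share its reads. Ccl20 and both rows named Ccl19 were listed at 0 in every library. For Ccl19 and Ccl21a, 1 row lies on chromosome 4 and 1 on scaffold JH584294.1. The Ccl21a values are those of the scaffold row, and its chromosome 4 row held 1 fragment in total. Reads that fit more than 1 copy could have been left uncounted, so 0 for Ccl19 does not show that it was absent.

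For Ccr2 the most abundant listed chemokine ligand was Ccl8 (43.9 ± 8.68 and 57.5 ± 17.2 FPKM, log2 fold change 0.37). Whether mouse Ccl8 acts on Ccr2 is not settled here. The next in level for Ccr2, added after its values were seen, was Ccl12 (24.2 ± 3.59 and 29.9 ± 6.8 FPKM, 0.29). The most abundant chemokine ligands of the others were Ccl6 for Ccr1 (38.6 ± 3.32 and 37.3 ± 17.6 FPKM, -0.14), Cx3cl1 for Cx3cr1 (15.6 ± 2.73 and 14.7 ± 1.39 FPKM, -0.07) and Cxcl12 for Cxcr4 (48.4 ± 3.29 and 54.0 ± 4.95 FPKM, 0.16). Each had overlapping groups and an adjusted p (limma) of 0.872 or more.

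**Figure D5:**
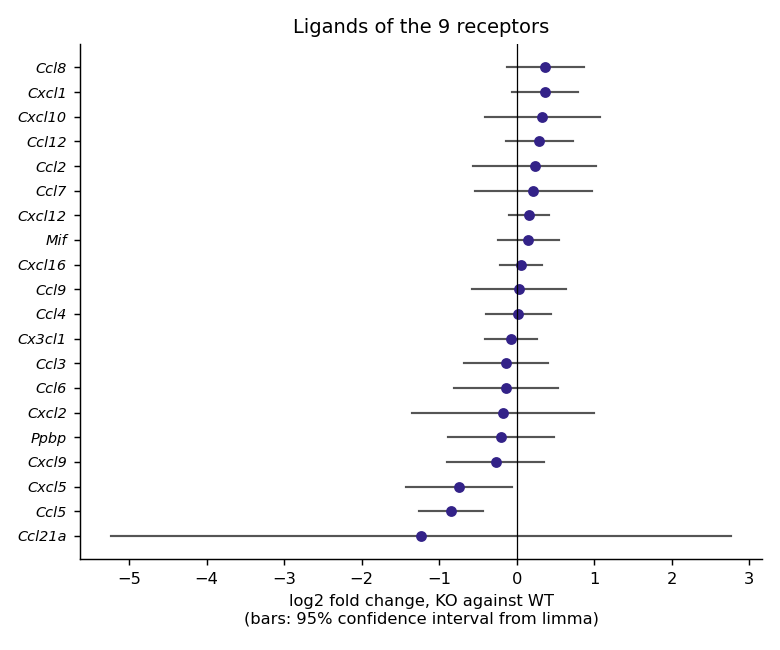
Log2 fold change, KO (Crlf2-/-) against WT, of the 20 tested ligand genes, with bars for the 95% confidence interval from limma. The intervals of Ccl5 and Cxcl5 lie below 0 before adjustment, and the other 18 include 0.

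Of the 14 other chemokine receptor genes, 10 were tested and 0 called, with 1 lower and 0 higher at an unadjusted p under 0.05 and a median of 0.03. The 1 was Ackr2, a scavenger of inflammatory CC chemokines, at 1.06, 1.25 and 1.29 FPKM in WT mice and 0.923, 0.631 and 0.936 FPKM in Crlf2-/- mice (log2 fold change -0.49 ± 0.21, SE; limma, adjusted p = 0.731). Its groups did not overlap. Among 25 genes of the signalling path below the receptors (G proteins, kinases, arrestins and regulators), 0 passed an unadjusted p of 0.05 in either direction, and their log2 fold changes ranged from -0.26 to 0.09 with a median of 0.00 (0.0032). The smallest p values were those of Grk5, a kinase that desensitizes receptors (log2 fold change -0.25, unadjusted p = 0.0851), and Arrb1, an arrestin (-0.22, unadjusted p = 0.134).

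As a description of the spread across the 6 libraries, the log2 levels of Ccr1 and Cxcr2 had a Pearson r of 0.957, those of Ccr7 and Cxcr3 0.887 and those of Cxcr3 and Cxcr6 0.785, while Ccr7 and Cxcr6 had 0.454. The other pairs of myeloid receptors lay between -0.043 (Cxcr2 and Cx3cr1) and 0.369 (Ccr2 and Cx3cr1), and Cxcr4 had 0.690 with Cxcr2 and 0.591 with Ccr1. Pairs of a T cell and a myeloid receptor ranged from -0.712 (Ccr7 and Cxcr2) to 0.077 (Cxcr6 and Cx3cr1). These values hold the difference between genotypes as well as the spread within them, and the points share their library.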

How the data were processed

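Infarcted hearts (3 WT, 3 Crlf2-/-) were sampled on day 7 and sequenced, 1 library per mouse. The authors trimmed reads, aligned them with HISAT2 2.0.5, counted fragments with featureCounts and deposited FPKM with a gene length. The labels name both mm10 and hg38, and GENCODE M21 (GRCm38) held 54409 of the 54532 genes, with identical start and end for 53499. The table held 0 columns of other samples. A result that needs a withheld item is not reported here.

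FPKM times gene length gave whole fragments for 100% of nonzero values (tolerance 0.05). Genes needed 10 fragments in at least 3 libraries and 15 in total, leaving 15520. FPKM were scaled by trimmed means of M values, and limma 3.58.1 (R 4.3.3; lmFit, then trended and robust eBayes) was applied to log2(FPKM + 0.1), which understates changes of low genes. Benjamini-Hochberg adjustment ran over all genes tested, and calls needed an adjusted p up to 0.05 and a log2 fold change of 0.5 or more in size. The test was checked on simulated data. Precision for genes under about 100 fragments is limited by counting error.

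Members and lists were chosen with earlier results of these data known. Named genes were the receptors, Crlf2, ligands and other receptors with an unadjusted p under 0.05, the most abundant chemokine ligand of each receptor (Mif was added after its values were seen), the 2 smallest p values of each other list and the 2 genes outside the lists most like each receptor. Marker lists covered T cells, regulatory T cells, NK cells, B cells, dendritic cells, monocytes, macrophages, resident macrophages, neutrophils, cardiomyocytes, fibroblasts, endothelium, red blood cells and retina. Alternatives were unscaled FPKM, median-of-ratios scaling, no filter, a stricter filter, pseudocounts of 0.01 and 1, voom on the fragments, the replicate number as a block and leaving out each library. Sums of marker lists without their most abundant gene were added after seeing the data. Tables were made in Python 3.11.15 with pandas 2.3.3 and numpy 2.4.6, and figures with matplotlib 3.10.9.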

Additional observations from a re-analysis of the deposited data

How the results depend on the processing

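No receptor was called under any of the 14 alternatives. Ccr7 (-0.92 to -0.52), Cxcr3 (-0.60 to -0.40) and Cxcr6 (-0.75 to -0.42) were lower in 14 of 14, with limma adjusted p of at least 0.405, 0.358 and 0.313. Ccr1 (0.12 to 0.67), Ccr2 (0.01 to 0.22), Cxcr2 (0.04 to 0.73) and Cx3cr1 (0.05 to 0.23) were above 0 in 14 of 14. Cxcr4, at 0.03, reversed in 2 of 14: it was -0.071 without WT replicate 2, and leaving out Crlf2-/- replicate 2 gave -0.046 (at most 0.12 with any library left out). Receptors at an unadjusted p under 0.05 numbered 3, and 2 to 4 when each library was left out: 2 without WT replicate 2 or Crlf2-/- replicate 1, and 4 without Crlf2-/- replicate 3. The median of the T cell receptors was between -0.68 (without WT replicate 1) and -0.44 (without Crlf2-/- replicate 1) when each library was left out, and that of the myeloid receptors between 0.07 and 0.44. The contrast of T cell minus myeloid receptors was -0.83, between -1.14 and -0.67 with each library left out and -0.64 with a pseudocount of 1.

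Over all genes, 2 were called, with 6 without a filter, 1 with 10 fragments in every library, and 1 to 14 when each library was left out: 1 without WT replicate 1, WT replicate 2 or Crlf2-/- replicate 3, 5 without WT replicate 3 and 14 without Crlf2-/- replicate 1. Genes at an unadjusted p under 0.05 numbered 1021, and 647 to 1138 with each library left out (647 without WT replicate 2). The cause was not tested. The median of the T cell markers, -0.85, was -1.13 with a pseudocount of 0.01, -0.41 with 1 and -1.16 with voom. The medians of regulatory T cell, NK cell, B cell, macrophage, resident macrophage, neutrophil, fibroblast, ligand and signalling genes changed sign in at least 1 of the alternatives. With the replicate number as a block, 4 genes were called over all genes and no receptor. Deviations of libraries with the same number had correlations of -0.016, 0.115 and 0.120, so the numbers were not taken as pairs, and the block changed no receptor's call.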

Other observations

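Genes outside the lists were ranked by how closely their log2 levels followed each receptor over the 6 libraries. Ccr7 was most like Luzp1 (Pearson r = 0.992) and Ak3 (0.991), Cxcr3 like Ctdspl (0.993) and Car14 (0.989), and Cxcr6 like Uqcr10 (0.995), a subunit of the mitochondrial respiratory chain, and Zc3h3 (0.990). Ccr1 was most like Ccdc112 (0.997) and Stambpl1 (0.988), Ccr2 like Zfp54 (0.984) and A430106G13Rik (0.981), and Cxcr2 like Psmc6 (0.997) and Actr3 (0.984), which encode a proteasome subunit and a part of the actin branching complex. Cx3cr1 was most like Gm3226 (0.990) and Wdr18 (0.980), and Cxcr4 like Cenpk (0.993) and Sgk3 (0.992). Between 12 (Cxcr4) and 86 (Cxcr3) of all tested genes had an r of at least 0.95 with a receptor, and with 6 libraries these values are a description.

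Of 6 fibroblast markers 0 passed an unadjusted p of 0.05 in either direction (median log2 fold change -0.05), as did 0 of 5 endothelial markers (-0.10) and 0 of 3 tested markers of resident macrophages (-0.14, but 0.23 without Crlf2-/- replicate 3). Of 5 retina markers 0 had enough fragments to be tested. Cxcl1, a Cxcr2 ligand chosen after its values were seen, was the 1 ligand for which every Crlf2-/- library lay above every WT library (0.993 against 1.30 FPKM, log2 fold change 0.37, limma adjusted p = 0.827).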
